A study of Mus musculus with 8 samples.

Results

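TNF superfamily ligands and their receptors were followed by array in mouse nerve sheath tumours given a MEK inhibitor, an mTORC1 inhibitor or both. The members are the genes whose symbol starts with Tnfsf or Tnfrsf followed by a digit and that have a probe set annotated to that symbol alone. There were 29 such genes, 9 ligands and 20 receptors, of 19938 genes measured. Each had 1 probe set. The symbols Tnfsf12 and Tnfsf13 share a single probe set and were therefore not members.

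RNA came from malignant peripheral nerve sheath tumours, cancers of the Schwann cell lineage, that arose in NPcis mice. These mice carry linked germline mutations of Nf1 and Trp53, a background that all 4 groups share. The groups were the combination of rapamycin (5 mg/kg by intraperitoneal injection) with PD-0325901 (1.5 mg/kg per dose by oral gavage), PD-0325901 alone at that dose, rapamycin alone at that dose, and vehicle, each for 14 hours and with 2 arrays. PD-0325901 inhibits MEK, the kinase that activates ERK, and rapamycin inhibits mTORC1. The labels do not say whether the arrays of a group come from separate animals, whether animals were pooled or what the vehicle was, so p-values cover only the spread between these arrays.

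TNF superfamily ligands are mostly membrane proteins that act as trimers on receptors of neighbouring cells. Their receptors either carry a death domain, which can start caspase activation, or recruit TRAF adaptors that switch on NF-kB and MAP kinases. Decoy receptors bind a ligand without passing on a signal. In tumours the family is known for killing through Tnfsf10 (TRAIL) and for costimulation of T and B cells, and many members are made by leukocytes or endothelium.

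The sequences upstream of 3 members are shown as examples of the patterns described below: Tnfsf18 was highest with PD-0325901 alone, Tnfrsf14 was high on every PD-0325901-treated array, and Tnfrsf23 was low on every one. Tnfrsf22 shared the pattern of Tnfrsf23, with a smaller p, but had no promoter in the reference used. The sequences are the 250 bases before the RefSeq start in GRCm38.p6, 5′ to 3′ on the gene's strand, with matches to the motifs searched in capitals.
Tnfsf18 (chr1:161494407-161494656, plus strand): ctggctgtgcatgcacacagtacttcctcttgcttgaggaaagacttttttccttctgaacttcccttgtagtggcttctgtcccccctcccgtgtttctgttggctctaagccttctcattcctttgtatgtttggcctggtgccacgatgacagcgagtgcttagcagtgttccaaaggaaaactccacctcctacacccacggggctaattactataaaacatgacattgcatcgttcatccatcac
Tnfrsf14 (chr4:154928078-154928327, minus strand): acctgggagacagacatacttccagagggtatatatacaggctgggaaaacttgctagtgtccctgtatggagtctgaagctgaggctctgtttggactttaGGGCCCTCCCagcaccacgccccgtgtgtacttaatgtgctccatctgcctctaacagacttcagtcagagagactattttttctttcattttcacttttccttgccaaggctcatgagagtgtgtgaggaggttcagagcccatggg
Tnfrsf23 (chr7:143685876-143686125, minus strand): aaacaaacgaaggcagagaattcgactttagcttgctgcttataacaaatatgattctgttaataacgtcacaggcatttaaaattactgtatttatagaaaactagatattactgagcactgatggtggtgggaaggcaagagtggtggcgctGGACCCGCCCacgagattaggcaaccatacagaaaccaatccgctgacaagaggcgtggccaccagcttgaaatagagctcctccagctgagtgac

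Both strands were searched for 3 motifs: GGG followed by CC after any 5 bases, a loose form of the NF-kB site, TGANTCA, the AP-1 site, and CACGTG, an E-box. The NF-kB form occurred once in the Tnfrsf14 window, 148 bases before the start, and once in the Tnfrsf23 window, 96 bases before it. These letters are common, with a match in 45.8% of 32851 promoters and in 14 of the 27 windows of members (51.9%), which cover 23 members, some with several starts. AP-1 letters were in 4 of the 27 windows (Tnfrsf8, Tnfrsf9, Tnfsf13b and Tnfsf14), against 6.75% of all promoters, and the E-box was in 3, those of Tnfrsf4, Tnfrsf8 and Tnfrsf19, against 6.02%. The Tnfsf18 window held none of the 3, which says only that these letters are not in it.

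Several members lie side by side in the GRCm38.p6 annotation. Tnfrsf26, Tnfrsf22 and Tnfrsf23 are consecutive protein-coding genes on chromosome 7. On chromosome 1 Tnfsf4 and Tnfsf18 are neighbours, and on chromosome 4 so are Tnfrsf4 and Tnfrsf18, Tnfrsf1b and Tnfrsf8, and Tnfsf15 and Tnfsf8. Chromosome 4 holds 9 of the 29 members.

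Levels are given as deposited, as log2 intensity, on which a difference of 1 is a doubling. They compare arrays for 1 gene, not genes with each other. Correlations over all probe sets were 0.961 to 0.986 within groups and 0.963 to 0.985 between groups, so arrays of a group were no more alike than arrays of different groups. Single cell type lists could still differ within a group. The 7 fibroblast markers had a mean level of 10.76 and 12.67 on the vehicle arrays and 12.49 and 10.89 on the rapamycin arrays. The 9 Schwann cell markers measured had a mean level of 7.45 to 7.88 on the 8 arrays, with Sox10, the Schwann lineage factor, at 7.85 to 8.17 and S100b at 7.12 to 7.32. No detection calls were used, so presence of a transcript cannot be told from these values. In bulk tumour RNA, fewer cells of a type and less RNA per cell cannot be told apart.

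No member passed the threshold of an adjusted p of 0.05 in any of the 10 comparisons, of which the fit of 4 group means with limma gave 8 and a fit of 2 groups, arrays with against without a drug, gave 2. For the PD-0325901 main effect, the mean of its effect with and without rapamycin, 0 members and 0% of all genes passed, while 9 members (31%) and 9.6% of all genes had an unadjusted p under 0.05. On the arrays with PD-0325901 against those without it, the fit of 2 groups called 0 members and 0.11% of all genes, with 9 members at an unadjusted p under 0.05, against 10.1% of all genes. For the rapamycin main effect 0 members and 0% of all genes passed, and 4 members and 5.55% of all genes had an unadjusted p under 0.05. In the fit of 2 groups for rapamycin 0 members and 0% of all genes passed, and 1 member, Tnfsf14, and 5.51% of all genes had an unadjusted p under 0.05. Differences below are therefore values with their standard error (SE), and none is a call.

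The 4 arrays with PD-0325901 lay above the other 4 for 4 members, Tnfrsf14, Tnfrsf1b, Tnfrsf17 and Tnfrsf13b, against 3.34% of all genes. They lay below for 3 members, Tnfrsf22, Tnfrsf23 and Tnfsf9, against 2.39% of all genes. These counts are 13.8% and 10.3% of the members. For rapamycin, 0 members lay above and 0 below, against 1.41% and 1.94% of all genes. The median difference over the members was 0.03 for the PD-0325901 main effect (15 higher, 14 lower) and -0.04 for the rapamycin main effect (11 higher, 18 lower), against -0.01 over all genes in both. With arrays left out in turn, the first of these medians turned sign, ranging from -0.027 to 0.0555, and the second ranged from -0.11 to -0.011. By role, 7 of 9 ligands and 8 of 20 receptors were higher in the PD-0325901 main effect, with medians of 0.09 and -0.15.

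**Figure D1:**
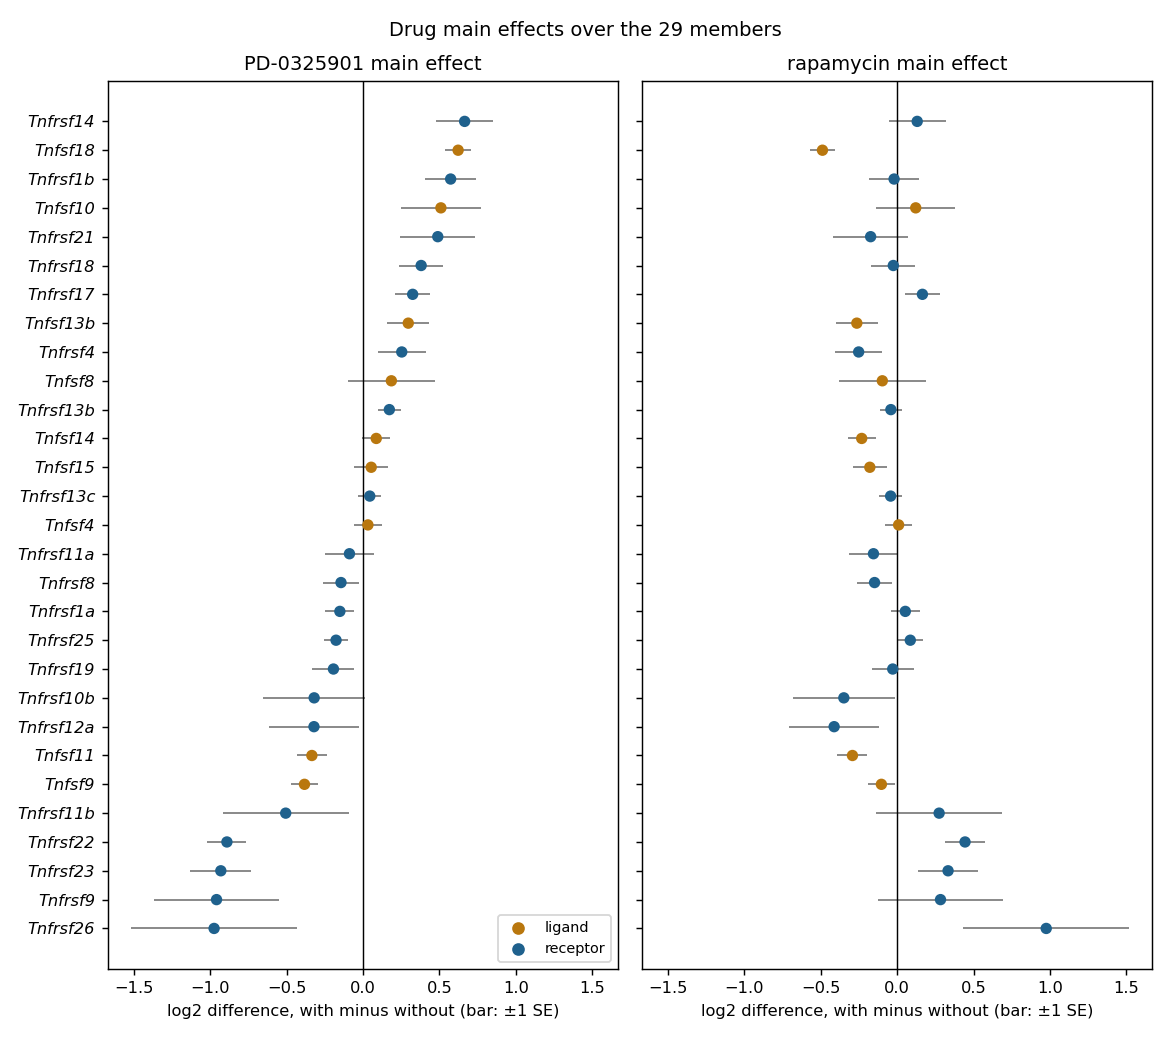
Log2 difference (with minus without the drug, x axis) of each of the 29 members (rows) as the PD-0325901 main effect (left) and the rapamycin main effect (right), with ligands in orange, receptors in blue and bars of 1 SE. Tnfrsf22 and Tnfrsf23 lie at -0.89 and -0.93 for PD-0325901 and at 0.44 and 0.33 for rapamycin, and Tnfsf18 lies at 0.62 and -0.49.

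Among the ligands, Tnfsf18 (GITR ligand), which costimulates T cells through Tnfrsf18, stood out with PD-0325901 alone. It measured 6.37 and 6.13 on the combination arrays, 7.32 and 7.37 on the PD-0325901 arrays, 6.22 and 6.24 on the rapamycin arrays and 6.18 and 6.05 on the vehicle arrays. Only the PD-0325901 arrays were high, and the other 6 were close to each other. PD-0325901 against vehicle gave a difference of 1.23 (SE 0.12), a 2.34-fold higher level, with an unadjusted p of 4.526e-05 and an adjusted p of 0.4344 in limma. It kept within 1.16 to 1.29 when each array was left out in turn. The combination against PD-0325901 gave -1.10 (SE 0.12, adjusted p = 0.8677), and the combination against vehicle 0.13 (SE 0.12, adjusted p = 0.7953). The PD-0325901 main effect was 0.62 (SE 0.08, adjusted p = 0.1411), and the arrays with and without the drug overlapped, combination array 2 lying among those without it. The interaction of the drugs was -1.21 (SE 0.17, unadjusted p = 0.0003398, adjusted p = 0.9999).

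Its receptor Tnfrsf18 (GITR), found on regulatory and activated T cells, measured 8.14 and 8.52 on the combination arrays, 7.97 and 8.44 on the PD-0325901 arrays, 7.89 and 7.70 on the rapamycin arrays and 8.04 and 7.91 on the vehicle arrays. Unlike the ligand, it was highest on array 2 of both groups with PD-0325901, and the groups with and without the drug overlapped. The PD-0325901 main effect was 0.38 (SE 0.14, adjusted p = 0.4854), and the combination against rapamycin gave 0.54 (SE 0.20, adjusted p = 0.7248), which was 0.35 without combination array 2. Tnfsf4 (OX40 ligand), the chromosomal neighbour of Tnfsf18, lay between 6.02 and 6.33 on the 8 arrays and had a main effect of 0.03 (SE 0.09). Its receptor Tnfrsf4 (OX40), a costimulatory receptor of T cells, spanned 7.69 to 8.57 and had one of 0.25 (SE 0.16, adjusted p = 0.7089).

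**Figure D2:**
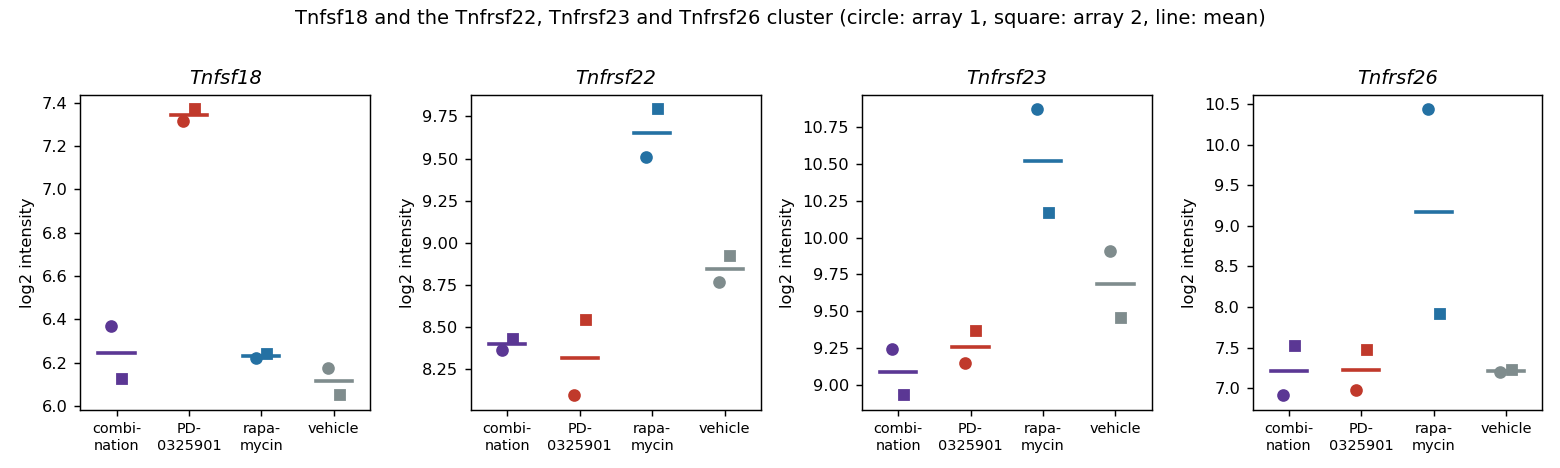
Log2 intensity (y axis) of Tnfsf18 and of the 3 receptor genes of chromosome 7 on each array, by treatment (x axis), with circles for array 1, squares for array 2 and lines for the group mean. The PD-0325901 arrays of Tnfsf18 sit at 7.32 and 7.37, above all others, and the rapamycin arrays are the highest for Tnfrsf22, Tnfrsf23 and Tnfrsf26.

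Of the receptor cluster on chromosome 7, Tnfrsf22 and Tnfrsf23 showed another order, high with rapamycin alone and low wherever PD-0325901 was given. Tnfrsf22, a mouse decoy receptor for TRAIL, measured 8.37 and 8.43 on the combination arrays, 8.09 and 8.54 on the PD-0325901 arrays, 9.51 and 9.79 on the rapamycin arrays and 8.76 and 8.92 on the vehicle arrays. The rapamycin arrays were above and the arrays with PD-0325901 below the vehicle arrays, with no overlap. Tnfrsf23, the other mouse TRAIL decoy, measured 9.25 and 8.93 on the combination arrays, 9.15 and 9.36 on the PD-0325901 arrays, 10.87 and 10.17 on the rapamycin arrays and 9.91 and 9.46 on the vehicle arrays. Rapamycin, vehicle and the arrays with PD-0325901 stood in the same order, again without overlap.

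For Tnfrsf22 the PD-0325901 main effect was -0.89 (SE 0.13, unadjusted p = 0.0004485, adjusted p = 0.1411). For Tnfrsf23 it was -0.93 (SE 0.20, unadjusted p = 0.003396, adjusted p = 0.2390). The limma fit of 2 groups gave larger unadjusted p, 0.004724 for Tnfrsf22 (adjusted p = 0.2281) and 0.009063 for Tnfrsf23. Set against rapamycin alone, the combination gave -1.25 for Tnfrsf22 (SE 0.18, adjusted p = 0.5728) and -1.43 for Tnfrsf23 (SE 0.28, adjusted p = 0.5751). In that comparison 0% of all genes passed, and 9 members and 6.66% of all genes had an unadjusted p under 0.05. Rapamycin against vehicle gave 0.81 for Tnfrsf22 (SE 0.18, adjusted p = 0.9638) and 0.84 for Tnfrsf23 (SE 0.28, adjusted p = 0.9638), and here 5 members and 4.93% of all genes had an unadjusted p under 0.05, with 0% past the threshold. The value of Tnfrsf23 was 0.48 without rapamycin array 1 and 1.19 without rapamycin array 2, and its rapamycin main effect of 0.33 was 0.16 and 0.51 in the same order. The interaction was -0.73 for Tnfrsf22 (SE 0.26) and -1.0 for Tnfrsf23 (SE 0.40), each with an adjusted p of 0.9999, and together with Tnfsf18 these were the 3 members with an unadjusted p under 0.05, against 2.18% of all genes (0% past the threshold).

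Tnfrsf26, a related receptor in the cluster, measured 6.91 and 7.51 on the combination arrays, 6.98 and 7.47 on the PD-0325901 arrays, 10.43 and 7.91 on the rapamycin arrays and 7.20 and 7.23 on the vehicle arrays. Its arrays with PD-0325901 overlapped the vehicle arrays, and a single array, rapamycin array 1, carried most of its difference. Rapamycin against vehicle gave 1.96 (SE 0.77, adjusted p = 0.9638), which was 0.70 without rapamycin array 1 and 3.22 without rapamycin array 2. The 3 genes are close relatives, and whether their probe sets also capture each other's transcripts was not tested.

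Rapamycin array 1 was also the highest of the 8 for mast cell markers, with a mean level of 8.82 over the 6 measured, against 6.96 on rapamycin array 2 and 6.86 to 7.84 on the other 6 arrays. Cpa3, a mast cell protease, was at 10.82 there and at 6.46 on rapamycin array 2. The other arrays did not share the order of Tnfrsf26. The PD-0325901 arrays came next for mast cell markers, at 7.68 and 7.84, with Cpa3 at 8.81 and 8.70. Tnfrsf26 was at 6.98 and 7.47 on those arrays, and its second highest value, 7.91, was on rapamycin array 2. Endothelial markers followed the order of Tnfrsf22 and Tnfrsf23 only in part. The 8 measured had a mean level of 9.19 to 9.69 with PD-0325901 and 9.46 to 10.29 without it. They were at 10.29 and 9.82 on the rapamycin arrays and at 9.92 and 9.46 on the vehicle arrays. The vehicle arrays thus overlapped both the rapamycin arrays and the arrays with PD-0325901. All 8 markers were lower in the PD-0325901 main effect (median -0.50). The part of either cell type in these receptor values was not tested.

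TRAIL itself, Tnfsf10, which kills cells through death receptors, measured 8.20 and 8.76 on the combination arrays, 8.11 and 8.76 on the PD-0325901 arrays, 8.48 and 7.61 on the rapamycin arrays and 7.93 and 7.77 on the vehicle arrays. Both groups with PD-0325901 lay above vehicle, but rapamycin array 1 reached into their range. The PD-0325901 main effect was 0.51 (SE 0.26, adjusted p = 0.6298). Tnfrsf10b, its death receptor in the mouse, spanned 8.56 to 10.14 with the highest value on vehicle array 1 and the lowest on combination array 2, and had a main effect of -0.32 (SE 0.33, adjusted p = 0.8624).

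Tnfrsf14 (HVEM), which binds the ligand Tnfsf14 (LIGHT) as well as inhibitory receptors of lymphocytes, led the receptors that were higher with PD-0325901. Its levels were 10.36 and 10.09 on the combination arrays, 9.99 and 10.26 on the PD-0325901 arrays, 9.81 and 9.37 on the rapamycin arrays and 9.74 and 9.12 on the vehicle arrays. All arrays with PD-0325901 were above all without it. The main effect was 0.67 (SE 0.19, unadjusted p = 0.01156, adjusted p = 0.3444). PD-0325901 against vehicle gave 0.69 (SE 0.26, adjusted p = 0.8176), and 0.38 without vehicle array 2. Against vehicle, the combination gave 0.80 (SE 0.26, adjusted p = 0.4683), and 0.48 without vehicle array 2. The ligand Tnfsf14 measured 7.14 and 7.25 on the combination arrays, 7.49 and 7.61 on the PD-0325901 arrays, 7.38 and 7.08 on the rapamycin arrays and 7.33 and 7.36 on the vehicle arrays. It was highest with PD-0325901 alone, and the combination against PD-0325901 gave -0.35 (SE 0.13, adjusted p = 0.9998). In the combination against PD-0325901, 2 members, Tnfsf14 and Tnfsf18, and 3% of all genes had an unadjusted p under 0.05, and 0% passed.

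Of the receptors for TNF itself, Tnfrsf1b (TNFR2), which is found on lymphocytes, myeloid cells and endothelium, measured 10.63 and 10.53 on the combination arrays, 10.52 and 10.98 on the PD-0325901 arrays, 10.42 and 9.89 on the rapamycin arrays and 10.14 and 9.91 on the vehicle arrays. Every array with PD-0325901 was above every array without it, the nearest being rapamycin array 1. The main effect was 0.57 (SE 0.16, adjusted p = 0.3587), and PD-0325901 against vehicle gave 0.72 (SE 0.23, adjusted p = 0.7231). In contrast Tnfrsf1a (TNFR1), the broadly expressed receptor with a death domain, stayed between 10.46 and 10.91 on all arrays and had a main effect of -0.15 (SE 0.09, adjusted p = 0.7113).

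**Figure D3:**
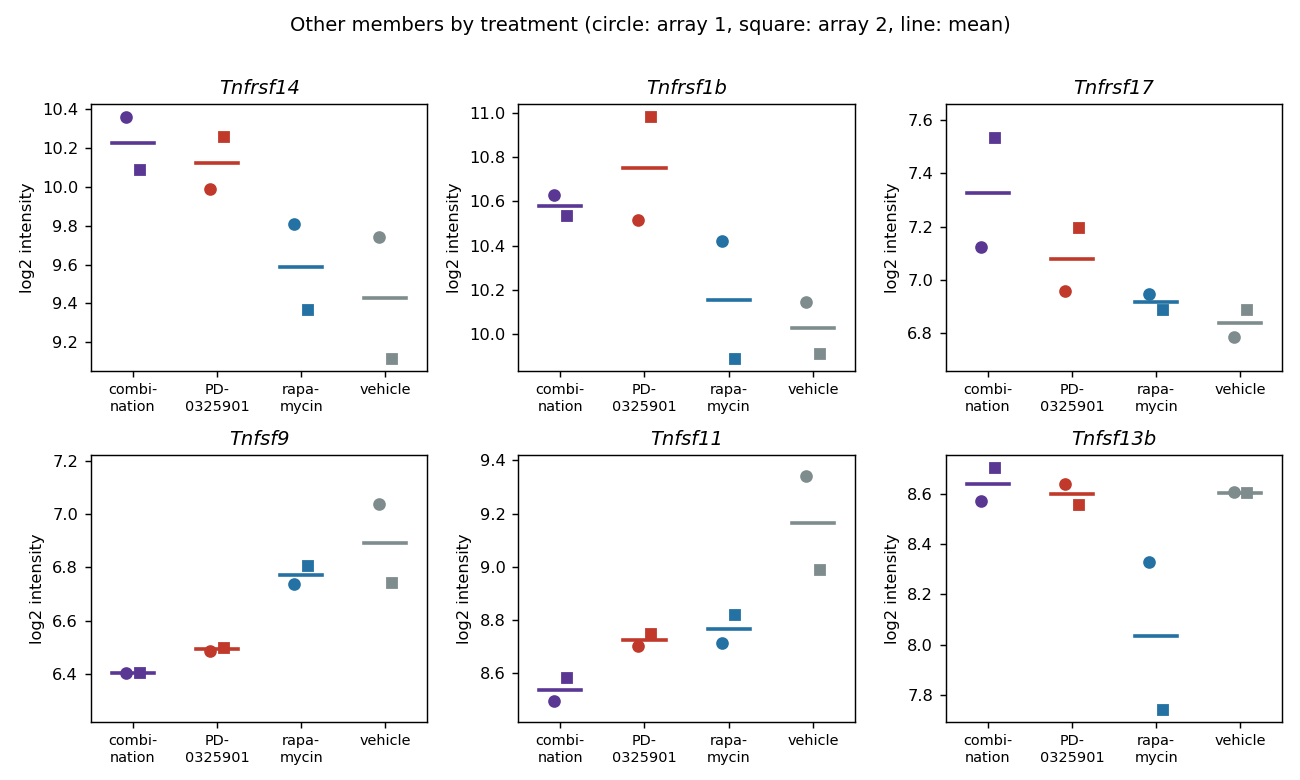
Log2 intensity (y axis) of 6 further members on each array, by treatment (x axis), with circles for array 1, squares for array 2 and lines for the group mean. The arrays with PD-0325901 are above the others for Tnfrsf14, Tnfrsf1b and Tnfrsf17 and below them for Tnfsf9, and Tnfsf13b is low on the rapamycin arrays.

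The receptors of the B cell factor Tnfsf13b (BAFF) differed among themselves. Tnfrsf17 (BCMA), a receptor of plasma cells, measured 7.12 and 7.53 on the combination arrays, 6.96 and 7.19 on the PD-0325901 arrays, 6.95 and 6.89 on the rapamycin arrays and 6.79 and 6.89 on the vehicle arrays. The groups with and without PD-0325901 did not overlap but came close, at 6.96 and 6.95. Its main effect was 0.33 (SE 0.12, adjusted p = 0.4581), and the combination against vehicle gave 0.49 (SE 0.16, adjusted p = 0.4722), which was 0.29 without combination array 2. Tnfrsf13b (TACI), a receptor of B cells and plasma cells, separated as well, at 8.38 to 8.47 with and 8.18 to 8.37 without the drug, with a main effect of 0.17 (SE 0.07, adjusted p = 0.5465), and Tnfrsf13c (BAFF receptor), the survival receptor of mature B cells, stayed within 8.24 to 8.42 and had 0.04 (SE 0.07, adjusted p = 0.9214).

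The ligand Tnfsf13b measured 8.57 and 8.70 on the combination arrays, 8.64 and 8.55 on the PD-0325901 arrays, 8.33 and 7.74 on the rapamycin arrays and 8.61 and 8.60 on the vehicle arrays. Both rapamycin arrays were low, and the other 6 were alike. Rapamycin against vehicle gave -0.57 (SE 0.20, adjusted p = 0.9638), a value that was -0.28 without rapamycin array 2 and -0.86 without rapamycin array 1. The combination against rapamycin gave 0.60 (SE 0.20, adjusted p = 0.6416), and 0.31 without rapamycin array 2.

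Tnfsf9 (CD137 ligand), a costimulatory ligand of antigen-presenting cells, was the ligand that lay below on all arrays with PD-0325901. It measured 6.40 and 6.40 on the combination arrays, 6.49 and 6.50 on the PD-0325901 arrays, 6.74 and 6.81 on the rapamycin arrays and 7.04 and 6.74 on the vehicle arrays. The arrays with the drug lay closer to each other than the vehicle arrays did. Its main effect was -0.38 (SE 0.09, unadjusted p = 0.004402, adjusted p = 0.2651), and in the fit of 2 groups the adjusted p was 0.1485. Against vehicle, the combination gave -0.49 (SE 0.12, adjusted p = 0.4039) and PD-0325901 -0.40 (SE 0.12, adjusted p = 0.7206), the second of which was -0.25 without vehicle array 1.

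The receptor Tnfrsf9 (CD137), induced on activated T cells, was far more scattered. Its levels were 7.85 and 8.45 on the combination arrays, 8.22 and 8.77 on the PD-0325901 arrays, 10.01 and 9.47 on the rapamycin arrays and 9.68 and 7.97 on the vehicle arrays. The vehicle arrays alone spanned most of the range. The PD-0325901 main effect was -0.96 (SE 0.41, adjusted p = 0.5404), and the combination against rapamycin gave -1.59 (SE 0.58, adjusted p = 0.7014).

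Tnfsf11 (RANKL), the cytokine that drives osteoclast formation, measured 8.50 and 8.58 on the combination arrays, 8.70 and 8.75 on the PD-0325901 arrays, 8.72 and 8.82 on the rapamycin arrays and 9.34 and 8.99 on the vehicle arrays. All 6 drug-treated arrays were below both vehicle arrays, and the combination arrays were the lowest. Against vehicle, the combination gave -0.63 (SE 0.14, unadjusted p = 0.004054, adjusted p = 0.3605), PD-0325901 gave -0.44 (SE 0.14, adjusted p = 0.7231) and rapamycin -0.40 (SE 0.14, adjusted p = 0.9638). These 3 comparisons share the vehicle arrays. Without vehicle array 1 the combination gave -0.45, PD-0325901 -0.26 and rapamycin -0.22.

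Among the comparisons with vehicle, 5 members had an unadjusted p under 0.05 for the combination, against 9.07% of all genes, and 6 for PD-0325901, against 5.84% of all genes, with 0% past the threshold in either. The receptor Tnfrsf11a (RANK), which osteoclast precursors carry, was highest on vehicle array 1, at 9.49, and lay between 8.81 and 9.11 on the others. Tnfrsf11b (osteoprotegerin), the secreted decoy for RANKL, was scattered within groups, with 8.43 and 8.60 on the combination arrays, 8.08 and 8.00 on the PD-0325901 arrays, 8.01 and 9.62 on the rapamycin arrays and 8.17 and 9.32 on the vehicle arrays. Osteoclast markers were likewise highest on vehicle array 1, with a mean level of 10.44 over the 5 measured, against 8.56 on vehicle array 2 and 7.83 to 9.13 on the other arrays. The part of these cells in the RANKL and RANK values was not tested.

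For the remaining members the arrays with and without PD-0325901 overlapped. Tnfrsf21 (death receptor 6), a death domain receptor of neurons and lymphocytes, had a PD-0325901 main effect of 0.49 (SE 0.24, adjusted p = 0.6202), with 10.56 and 9.89 on the combination arrays, 10.49 and 10.54 on the PD-0325901 arrays, 9.44 and 10.27 on the rapamycin arrays and 10.14 and 9.68 on the vehicle arrays. Tnfrsf12a (Fn14), an injury-induced receptor for TWEAK, measured 10.06 and 9.96 on the combination arrays, 10.45 and 10.13 on the PD-0325901 arrays, 9.54 and 10.87 on the rapamycin arrays and 10.89 and 10.60 on the vehicle arrays. All its arrays with PD-0325901 lay below both vehicle arrays, but rapamycin array 1 was the lowest of all. The combination against vehicle gave -0.73 (SE 0.41, adjusted p = 0.6669). Tnfrsf8 (CD30), a receptor of activated lymphocytes, measured 7.50 and 7.51 on the combination arrays, 7.42 and 7.55 on the PD-0325901 arrays, 7.52 and 7.45 on the rapamycin arrays and 7.56 and 8.03 on the vehicle arrays. Vehicle array 2 alone stood above the rest, and the difference of -0.31 for PD-0325901 against vehicle (SE 0.16, adjusted p = 0.9616) was -0.077 without it and -0.54 without vehicle array 1. Its ligand Tnfsf8 spanned 6.40 to 7.62 and had main effects of 0.19 (SE 0.28) and -0.10 (SE 0.28) for PD-0325901 and rapamycin.

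Tnfrsf25 (DR3), a receptor on T cells for Tnfsf15 (TL1A), measured 7.95 and 7.98 on the combination arrays, 7.91 and 8.07 on the PD-0325901 arrays, 8.15 and 8.35 on the rapamycin arrays and 8.08 and 8.04 on the vehicle arrays. It was highest on the rapamycin arrays, with 0.19 for rapamycin against vehicle (SE 0.11, adjusted p = 0.9638), which was 0.093 without rapamycin array 2 and 0.29 without rapamycin array 1, and a PD-0325901 main effect of -0.18 (SE 0.08, adjusted p = 0.5781). Tnfsf15 itself measured 7.10 and 7.35 on the combination arrays, 7.38 and 7.35 on the PD-0325901 arrays, 7.16 and 7.10 on the rapamycin arrays and 7.54 and 7.15 on the vehicle arrays. Its vehicle arrays differed more than its group means, and rapamycin against vehicle gave -0.22 (SE 0.16, adjusted p = 0.9638), a value of -0.024 when vehicle array 1 was left out and of -0.41 when vehicle array 2 was. Tnfrsf19 (TROY), a receptor of neural and epithelial progenitors, spanned 7.57 to 8.14 with a PD-0325901 main effect of -0.19 (SE 0.14, adjusted p = 0.7619).

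**Figure D4:**
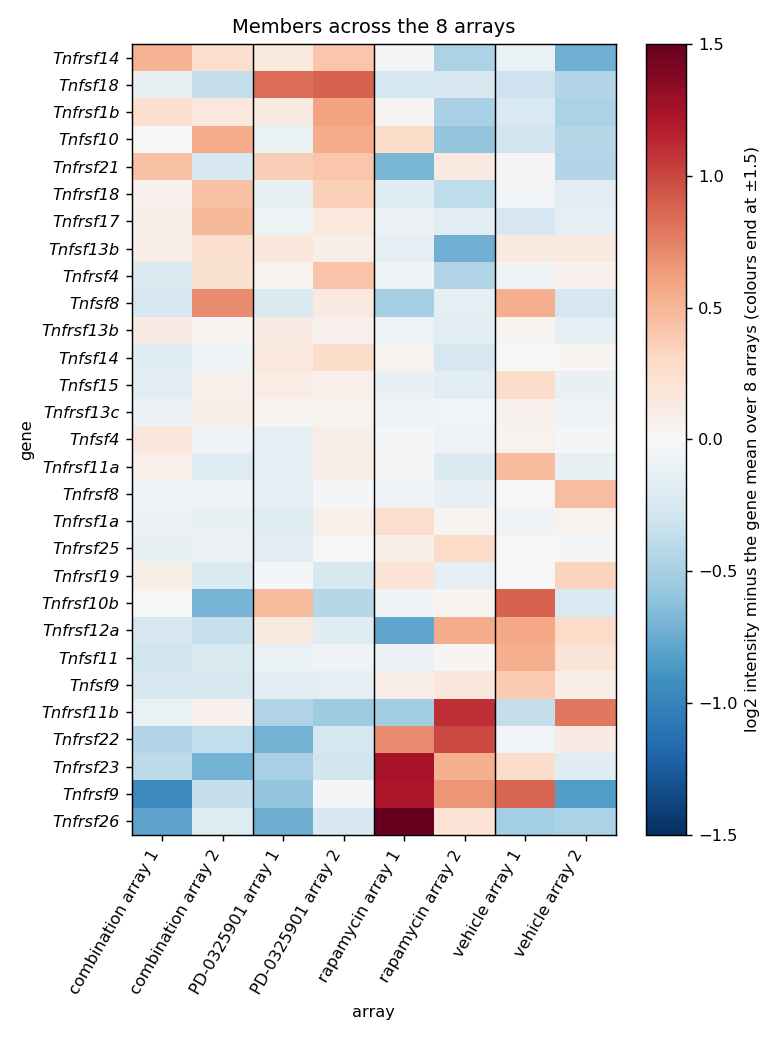
Log2 intensity of the 29 members (rows, in the order of the PD-0325901 main effect) on the 8 arrays (columns, by treatment), each gene centred on its mean over the arrays, with colours ending at ±1.5. Tnfsf18 is high on both PD-0325901 arrays, and Tnfrsf26, Tnfrsf9 and Tnfrsf23 are highest on rapamycin array 1.

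Marker levels of leukocytes, which carry many of these receptors, differed with PD-0325901 too. The 10 T and NK cell markers measured, of 12 listed, were all higher as a main effect (median 0.75), with a mean level of 7.78 to 8.70 with the drug and 7.19 to 7.83 without it. Of 10 macrophage markers 9 were higher (median 0.39), at 11.15 to 11.64 with and 11.01 to 11.30 without PD-0325901. Combination array 2 and PD-0325901 array 2 had the highest T and NK levels, 8.70 and 8.42, and also the highest levels of Tnfrsf18, Tnfrsf4 and Tnfrsf17. The match was not particular to T and NK markers. In the same order, these arrays were also highest for regulatory T cell markers (7.91 and 7.75) and B and plasma cell markers (7.45 and 7.63). Other receptors of T cells or activated lymphocytes did not share this order. Tnfrsf9 was highest on rapamycin array 1 (10.01), Tnfrsf25 on rapamycin array 2 (8.35) and Tnfrsf8 on vehicle array 2 (8.03). Macrophage levels were instead highest on the PD-0325901 arrays (11.64 and 11.62) and combination array 1 (11.59). Dendritic cell markers were higher for 6 of 8 (median 0.51), with 8.09 to 8.66 with and 7.78 to 8.12 without the drug. B and plasma cell markers were higher for 3 of 6 (median 0.03), with 7.0 to 7.63 with and 6.84 to 7.26 without PD-0325901. Regulatory T cell markers were higher for 3 of 4 (median 0.21), with 7.36 to 7.91 and 7.38 to 7.61. All 6 neutrophil markers were higher (median 0.15), with a mean level of 6.90 to 8.36 with and 6.95 to 7.42 without the drug. The level of 8.36 was on PD-0325901 array 2, and the other arrays with the drug had 6.90 to 7.48. In the combination against vehicle 2 were higher and 4 lower, and the same held against rapamycin. PD-0325901 array 2, where Tnfrsf1b was highest, had the highest neutrophil level and also an erythroid level of 10.89, against 7.57 to 8.31 on the other arrays. No marker is at 0 on this log2 scale, and the part of these cells in the receptor values was not tested.

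**Figure D5:**
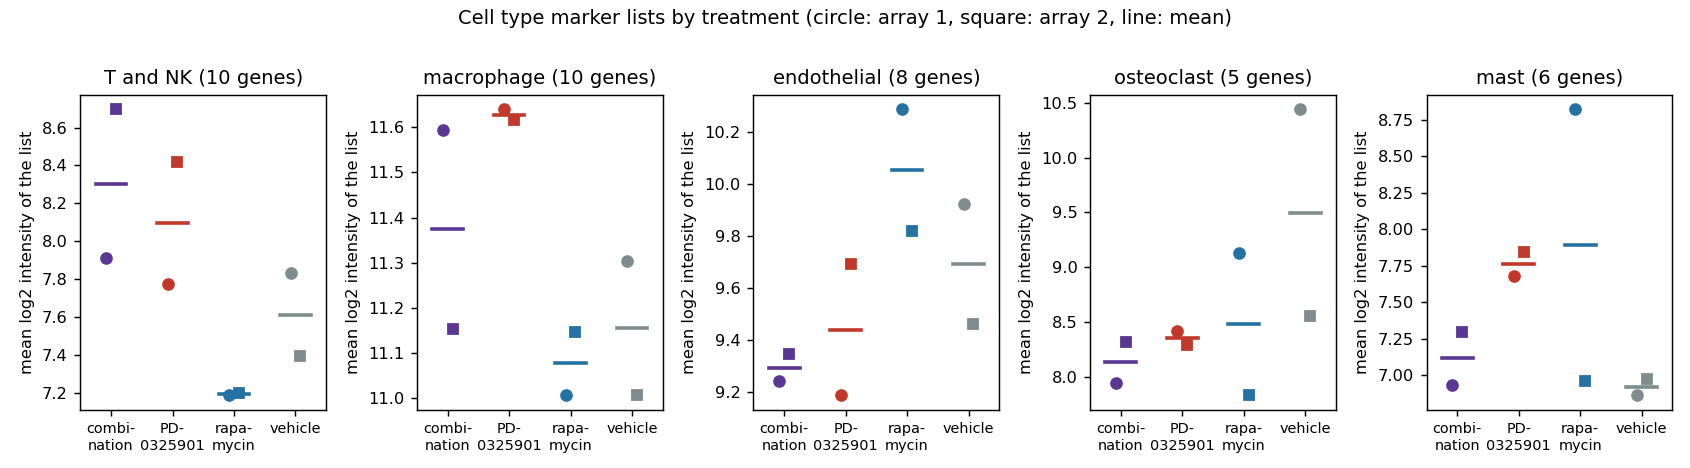
Mean log2 intensity (y axis) of 5 cell type marker lists on each array, by treatment (x axis), with circles for array 1, squares for array 2 and lines for the group mean. T and NK markers reach 8.70 on combination array 2, osteoclast markers 10.44 on vehicle array 1 and mast cell markers 8.82 on rapamycin array 1.

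Superfamily members that carry other names gave values in both directions. Of the 8 receptors among them, 5 were higher and 3 lower in the PD-0325901 main effect, and 0 passed. Cd40, the receptor through which T cells license antigen-presenting cells, measured 9.54 and 9.26 on the combination arrays, 9.71 and 9.46 on the PD-0325901 arrays, 8.99 and 8.89 on the rapamycin arrays and 9.21 and 8.65 on the vehicle arrays. Its arrays with PD-0325901 were all above those without it, and the difference was 0.56 (SE 0.15, adjusted p = 0.3279). Relt, a lymphoid receptor, had 0.50 (SE 0.13, adjusted p = 0.3227), Cd27, a costimulatory receptor of T cells, 0.56 (SE 0.22, adjusted p = 0.5121), and Eda2r, a receptor for ectodysplasin, -0.86 (SE 0.34, adjusted p = 0.4969). Of the 7 ligands 4 were higher, and 0 passed. The smallest p was that of Ltb, a lymphotoxin chain, at 0.39 (SE 0.17, adjusted p = 0.5404). In the rapamycin main effect Tnf, the founding cytokine of the family, had -0.41 (SE 0.15, adjusted p = 0.8638).

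Downstream of the receptors, 8 of 11 adaptors measured were higher in the PD-0325901 main effect and 0 passed, with a median of 0.14. Traf1, an adaptor induced by NF-kB, had the smallest p. It measured 8.78 and 9.15 on the combination arrays, 8.92 and 8.62 on the PD-0325901 arrays, 8.21 and 8.12 on the rapamycin arrays and 8.13 and 7.93 on the vehicle arrays. The arrays with the drug were all above the others, and the difference was 0.77 (SE 0.12, unadjusted p = 0.0007516, adjusted p = 0.1552). Traf5, a lymphocyte adaptor, had 0.62 (SE 0.19, adjusted p = 0.3743) and Tradd, the TNFR1 adaptor, 0.29 (SE 0.09, adjusted p = 0.4002).

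NF-kB kinases, subunits and regulators were higher for 10 of 16 measured (median 0.05), with the kinase Ikbkb at 0.40 (SE 0.08, adjusted p = 0.2048), the subunit Rel at 0.44 (SE 0.09, adjusted p = 0.2164) and the kinase partner Tab3 at -0.40 (SE 0.15, adjusted p = 0.4837). Of the 19 NF-kB target genes 7 were higher and 12 lower (median -0.07). The chemokine Cxcl2 had -0.84 (SE 0.25, adjusted p = 0.3731) and the chemokine Ccl2 0.67 (SE 0.27, adjusted p = 0.5077). In the rapamycin main effect the smallest p of this list was that of Cxcl10, an interferon-induced chemokine, with -0.98 (SE 0.35, adjusted p = 0.8638). Death signalling genes and their inhibitors were higher for 2 of 9 measured (median -0.25), with Bid, which links caspase-8 to mitochondria, at -0.41 (SE 0.18, adjusted p = 0.5417) and Mlkl, the executor of necroptosis, at 0.37 (SE 0.16, adjusted p = 0.5647). Vehicle array 1 stood apart for the death signalling list, with a mean level of 9.89 against 9.20 to 9.37 on the other 7 arrays. On that array Birc3, an inhibitor of apoptosis protein, was at 11.68, against 9.26 to 10.01 on the others, and Birc2 at 10.33, against 7.87 to 8.36. None of these 3 lists had a member past the threshold.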

How the data were processed

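The authors deposited log2 intensities, 1 value per probe set and array. The log2 unit was read from the values (3.36 to 14.36), while the sources used here do not name the software, background correction or normalization. Per the labels' protocols, Trizol RNA was cleaned on RNeasy columns, amplified with a Nugen Applause kit and labelled with biotin. Of 35512 probe sets 21789 carry 1 symbol, 1621 several. The highest-mean probe set stood for each gene. No filter on low values was applied. Group means were fitted with limma 3.58.1 in R 4.3.3 (lmFit, eBayes, two-sided, 4 residual degrees of freedom) over all 19938 genes, with Benjamini-Hochberg adjustment and a threshold of 0.05. The fit of 2 groups had 6. The number of arrays limits the precision.

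The members, gene lists and tests were chosen with earlier results of these data known. Tnfsf18 and Tnfrsf22 were named with every array's value. So were the members with the smallest p, up to 4 per direction in each comparison with vehicle and each main effect. In the other comparisons it was up to 2 per direction. From each pathway list up to 3 per direction were named, by their difference and SE. Ligands, receptors and members named beside them were added after their values were seen. So were every array's values of Tnfrsf9, Tnfsf10, Tnfrsf12a, Traf1 and Cd40, and the span of Tnfrsf10b. All 29 members matched RefSeq by Entrez ID, and 23 have a promoter there. Calls were tested on simulated data. Alternatives were 2 normalizations, a level filter, a variance trend, the mean of probe sets, the array number as a block, a threshold of 0.1, only the groups compared, and leaving out each array.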

Additional observations from a re-analysis of the deposited data

Results flagged for a closer look

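Tnfsf18 was flagged because its rapamycin difference had opposite signs with and without PD-0325901. Both combination arrays (6.37 and 6.13) lay below both PD-0325901 arrays (7.32 and 7.37). Without PD-0325901, both rapamycin arrays (6.22 and 6.24) lay just above both vehicle arrays (6.18 and 6.05). That difference was 0.12 (SE 0.12, unadjusted p = 0.3574, adjusted p = 0.9659 in limma), so no direction was shown without PD-0325901. The interaction term was -1.21 (SE 0.17), with an unadjusted p of 0.0003398 and an adjusted p of 0.9999 in limma, so the difference does not pass over all genes.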

How the results depend on the processing

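No member passed the threshold under any alternative run, by limma, and the named values kept their direction in 848 of 850 recomputed cases. Both exceptions were small differences: Tnfsf18 for the combination against rapamycin ranged from -0.10 (without combination array 1) to 0.14 (without combination array 2), and Tnfrsf22 for the combination against PD-0325901 from -0.14 (without PD-0325901 array 1) to 0.30 (without PD-0325901 array 2). When the genes with a mean level below the median gene were dropped, which leaves 15 members, the members' median was -0.21 for PD-0325901 against vehicle, -0.23 for the combination against vehicle, -0.19 for the combination against rapamycin, and -0.15 for the PD-0325901 main effect and its fit of 2 groups. Tnfsf18, Tnfsf9 and Tnfrsf17, with mean levels of 6.48, 6.64 and 7.04, were among the members dropped, so this alternative did not test their values. With arrays left out in turn, that median ranged from -0.15 to 0.0877 for PD-0325901 against vehicle, -0.10 to 0.0157 for rapamycin against vehicle, -0.11 to 0.0361 for the combination against vehicle, -0.0063 to 0.0572 for the combination against rapamycin, -0.12 to -0.0017 for the combination against PD-0325901, -0.12 to 0.0785 for the interaction, -0.027 to 0.0555 for the PD-0325901 main effect (-0.0208 to 0.0553 in its fit of 2 groups) and -0.11 to -0.011 for the rapamycin main effect.

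Counts over all genes moved most. The 22 genes called on arrays with against without PD-0325901 became 12 above the median gene, 6 with a variance trend, 109 at an adjusted p of 0.1, and 0 to 65 with arrays left out (65 without rapamycin array 1, 0 without PD-0325901 array 2 or combination array 1, and 2 to 7 without any other). The cause was not tested. With arrays left out, the counts ranged from 0 to 9 for PD-0325901 against vehicle, 0 to 15 for rapamycin against vehicle, 0 to 9 for the combination against vehicle, 0 to 8 and 0 to 2 for the PD-0325901 and rapamycin main effects and 0 to 2 for the interaction, the highest without vehicle array 2 except for rapamycin against vehicle, where it was without rapamycin array 2. Deviations of same-numbered arrays correlated at -0.28 to 0.18 over the 6 pairs of groups, the highest being that of PD-0325901 and the combination. Such correlations cannot tell whether same-numbered arrays were handled together. With array number as a replicate block, 0 genes passed on arrays with against without PD-0325901, and members past the threshold stayed at 0.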
